A study of Mus musculus with 6 samples.

Results

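The 6 genes described here carry the signal of leukaemia inhibitory factor (LIF) from the cell surface to the nucleus. They are Lifr, Il6st, Stat3, Socs3, Jak1 and Ptpn11, taken by their symbols from the annotation of the array, out of 22485 named genes. Gene expression was measured on 6 single-colour arrays of whole mouse blastocysts of the B6C3F1 strain, collected on day 5 from embryos of superovulated females aged 6 to 8 weeks. The scramble group had 3 arrays, from embryos cultured for 72 hours with 400 nM of a scrambled oligonucleotide carrying the dye Alexa 488. The mimic group had 3 arrays, from embryos cultured for the same time with 400 nM of a mimic of the microRNA miR-30d. There were 30 embryos per condition, without a statement of the number in each sample, and 50 ng of RNA from each sample entered the Cy3 labelling. All embryos had been flushed from the oviduct on the second day of pregnancy, and both groups received a synthetic RNA. Untreated embryos were not analysed here. The dye is named for the scramble only, and its effect and that of miR-30d cannot be told apart.

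LIF is a cytokine of the interleukin-6 family. It binds its receptor LIFR, which pairs with the shared signalling subunit gp130, and the kinase JAK1 on these receptors then phosphorylates STAT3, which enters the nucleus. SOCS3 is a feedback inhibitor that STAT3 induces, and SHP2, encoded by Ptpn11, binds gp130, connects it to the Ras and MAP kinase branch and dampens STAT3 signalling. In the mouse, uterine LIF is required for implantation of the blastocyst, and LIF with STAT3 maintains embryonic stem cells in the naive state. The study concerns microRNAs that the endometrium gives to the embryo before it implants, and the arrays compare embryonic transcripts after culture with miR-30d or with the scramble.

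The promoters of the 3 members whose mimic and scramble arrays did not overlap, Lifr, Il6st and Socs3, are shown to set their sequence beside the array values. Each run is the 250 bases before the annotated start of the gene, 5′ to 3′ on the strand of the gene, from RefSeq on build GRCm38.p6. Capitals mark a match to TTCNNNGAA, the core of the binding motif of STAT proteins, which reads the same on both strands.
Lifr, chr15:7129322-7129571, + strand: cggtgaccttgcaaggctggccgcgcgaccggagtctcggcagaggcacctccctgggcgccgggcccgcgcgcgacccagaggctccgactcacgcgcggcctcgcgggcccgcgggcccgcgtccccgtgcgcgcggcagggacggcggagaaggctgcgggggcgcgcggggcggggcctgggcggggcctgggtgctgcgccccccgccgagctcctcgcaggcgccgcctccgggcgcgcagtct
Il6st, chr13:112463820-112464069, + strand: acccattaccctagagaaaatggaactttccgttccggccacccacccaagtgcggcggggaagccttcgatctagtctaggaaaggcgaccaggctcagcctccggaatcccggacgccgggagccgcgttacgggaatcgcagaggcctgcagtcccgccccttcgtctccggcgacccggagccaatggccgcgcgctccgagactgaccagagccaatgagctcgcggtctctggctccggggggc
Socs3, chr11:117969367-117969616, - strand: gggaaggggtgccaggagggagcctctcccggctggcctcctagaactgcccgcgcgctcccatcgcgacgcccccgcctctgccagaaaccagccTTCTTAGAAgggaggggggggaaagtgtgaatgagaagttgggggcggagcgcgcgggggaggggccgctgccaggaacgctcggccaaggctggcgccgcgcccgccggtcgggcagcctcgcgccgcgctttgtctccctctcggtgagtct
The Socs3 window held 1 match, TTCTTAGAA, whose first base lies 154 bases before the start. Socs3 was the only one of the 6 genes with a match in its 7 windows, among which Lifr has a second start on chromosome 15. Of all 32851 windows of this length 7.02% held a match, and of the 27025 genes with a window 8.13% had a match. The windows ranged in G and C content from 50.8% at the second start of Lifr to 82.4% at the first. A match is a description of the letters and not evidence of binding, and no match says only that these letters are absent from the window.

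Blastocyst markers were bright on the arrays. All 7 trophectoderm markers, Krt18, Krt8 and Cdx2 among them, had mean log2 signals from 11.87 to 15.76. The 5 inner cell mass markers ranged from 8.10 to 10.95 and the 4 primitive endoderm markers from 9.26 to 11.17. The markers of cumulus, oviduct, sperm and blood cells had mean signals of at most 7.41, beside a median of 7.20 over the features without a gene name. The replicate 1 arrays stood apart from the others, scramble replicate 1 the most. Scramble replicate 1 was the lowest of the 6 arrays in 32.0% of the 17399 genes tested, and in 41.7% of those with a mean log2 signal between 7.5 and 9. The other arrays were lowest in 8.41% to 22.1% of genes, mimic replicate 1 being the highest of these. Scramble replicate 1 was also the highest array in 24.3% of genes, more often than any other array, and held the fewest distinct values, 2108. Mimic replicate 1 came next in both, as the highest array in 20.6% of genes and with 2683 distinct values. The remaining arrays held 4410 to 5979 distinct values. The arrays hold whole embryos, so fewer cells of a type and less RNA per cell cannot be told apart. Precision is limited by the number of arrays, and over all genes the standard error of the log2 difference had a median of 0.249.

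On the brightest feature of each gene, both receptor subunits and the feedback inhibitor had higher signal on every mimic array than on every scramble array, while the kinase and the transcription factor did not separate. No member passed the test across all genes. All 6 members and all 18 of their array features passed the filter on dim signal. The members and the pathway lists were chosen with earlier results of these data known. Shares over all genes or features, here and below, are therefore set beside them as description only. On the brightest feature of each gene 4 members had higher mean signal and 2 had lower. Their median log2 difference was 0.35, beside a median of 0.02 over all genes tested, of which 53.2% were higher. With each array left out in turn the median of the members lay between 0.18, without scramble replicate 1, and 0.45, without scramble replicate 2. With limma 0 of 6 members and 0 of 17399 genes (0%) passed an adjusted p of 0.05. The smallest adjusted p of a member was 0.972. At an unadjusted p of 0.05 it held 1 of 6 members, beside 3.17% of all genes. The 3 mimic arrays stood clear of the 3 scramble arrays in 3 of 6 members, beside 9.7% of all genes. With the mean over the features of each gene this held for 2 of 6 members, as the Lifr groups then overlapped. A two-sided exact permutation test gave the 3 members that stood clear on the brightest feature p = 0.1, which is the lowest value this design can give. Groups of 3 arrays that do not overlap always give this value, so the test only restates how these members were picked.

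Lifr, the ligand-binding receptor subunit, had log2 signals of 9.31, 9.52 and 9.24 on the scramble arrays and 9.80, 9.81 and 9.93 on the mimic arrays. The lowest mimic array was above the highest scramble array, and the spread within each group was small. The means were 9.36 ± 0.15 and 9.85 ± 0.08 (SD, n = 3 each), which differ on the log2 scale by 0.49 (SE 0.16), or 1.40-fold. Its 95% interval ran from 0.12 to 0.86, and limma gave an unadjusted p of 0.0154 and an adjusted p of 0.972. Lifr has 2 further features on the array. The feature annotated to the transcript NM_001113386 had a log2 difference of 0.61 (SE 0.44), with scramble replicate 1 at 6.66 and the other 5 arrays at 8.05 to 8.48. The second feature annotated to NM_013584 had 0.28 (SE 0.39), with both replicate 1 arrays low, at 7.12 and 7.31. The groups overlapped in both of the dimmer features. Without scramble replicate 1 the log2 difference of the NM_001113386 feature was 0.11 and that of the second NM_013584 feature 0.00052, whereas the brightest feature kept 0.46.

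Il6st encodes gp130, the signalling subunit that LIFR shares with the receptors of interleukin-6, interleukin-11 and oncostatin M. It read 7.20, 8.46 and 8.12 with scramble and 8.50, 8.82 and 8.61 with the mimic. The lowest mimic array exceeded the highest scramble array by little, and scramble replicate 1 lay far below the other 5. The means were 7.93 ± 0.65 and 8.64 ± 0.16 (SD, n = 3 each), which differ on the log2 scale by 0.72 (SE 0.37), the widest error among the brightest features of the 6 genes. The 95% interval from -0.12 to 1.55 included 0, and the adjusted p was 0.972 in limma. Without scramble replicate 1 the log2 difference was 0.35, and without scramble replicate 2 it was 0.98. Il6st has a single feature on this array, so no second reading of it was made.

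Socs3, the feedback inhibitor that binds gp130, read 9.02, 9.83 and 9.72 with scramble and 9.87, 10.05 and 10.17 with the mimic. Its groups did not overlap either, and mimic replicate 1 at 9.87 lay just above scramble replicate 2 at 9.83. The means were 9.53 ± 0.44 and 10.03 ± 0.15 (SD, n = 3 each), which differ on the log2 scale by 0.50 (SE 0.23, 95% interval -0.02 to 1.03), or 1.42-fold. The adjusted p was 0.972 in limma. Without scramble replicate 1 the log2 difference was 0.25, and without both replicate 1 arrays it was 0.33. The part of this array's low readings in the differences of Il6st and Socs3 was not tested beyond these values.

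Ptpn11 encodes SHP2, the phosphatase that links gp130 to the Ras branch. It read 11.51, 11.93 and 11.71 with scramble and 11.83, 12.17 and 11.81 with the mimic. The groups overlapped, since scramble replicate 2 lay above 2 of the mimic arrays. The log2 difference was 0.22 (SE 0.16, 95% interval -0.14 to 0.58), with an adjusted p of 0.972 in limma. Without scramble replicate 1 it was 0.11, without mimic replicate 2 it was 0.10, and without scramble replicate 2 it was 0.33.

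Jak1, the receptor-bound kinase, was the steadiest of the 6, with a range of 0.29 over the 6 arrays. It read 10.68, 10.47 and 10.59 with scramble and 10.74, 10.47 and 10.45 with the mimic, and the groups overlapped. The log2 difference was -0.03 (SE 0.14), with a 95% interval from -0.35 to 0.29 and an adjusted p of 0.989 in limma. Its sign turned to 0.02 without scramble replicate 1 or without mimic replicate 3, and to 0.01 without mimic replicate 2.

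Stat3, the transcription factor that carries the signal to the nucleus, had lower mean signal with the mimic. Its brightest feature read 12.31, 11.86 and 12.01 with scramble and 12.11, 11.51 and 11.88 with the mimic. The groups overlapped, with scramble replicate 1 the highest array and mimic replicate 2 the lowest. The means were 12.06 ± 0.23 and 11.83 ± 0.30 (SD, n = 3 each), which differ on the log2 scale by -0.23 (SE 0.18, 95% interval -0.65 to 0.19, adjusted p = 0.972 in limma). Without mimic replicate 2 the log2 difference was -0.07, without scramble replicate 1 it was -0.10, and without mimic replicate 1 it was -0.37. Stat3 has 11 features, of which 10 are annotated to NM_213659 and had log2 differences from -0.31 to -0.16. Mimic replicate 2 was the lowest array on all 10 of these and scramble replicate 1 the highest on 9. Features of the same gene read the same RNA samples, and their likeness is no replication of the treatment. The feature annotated to NM_011486 was far dimmer than these and had a log2 difference of 0.12 (SE 0.40), with scramble replicate 1 the lowest array at 6.91.

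**Figure D1:**
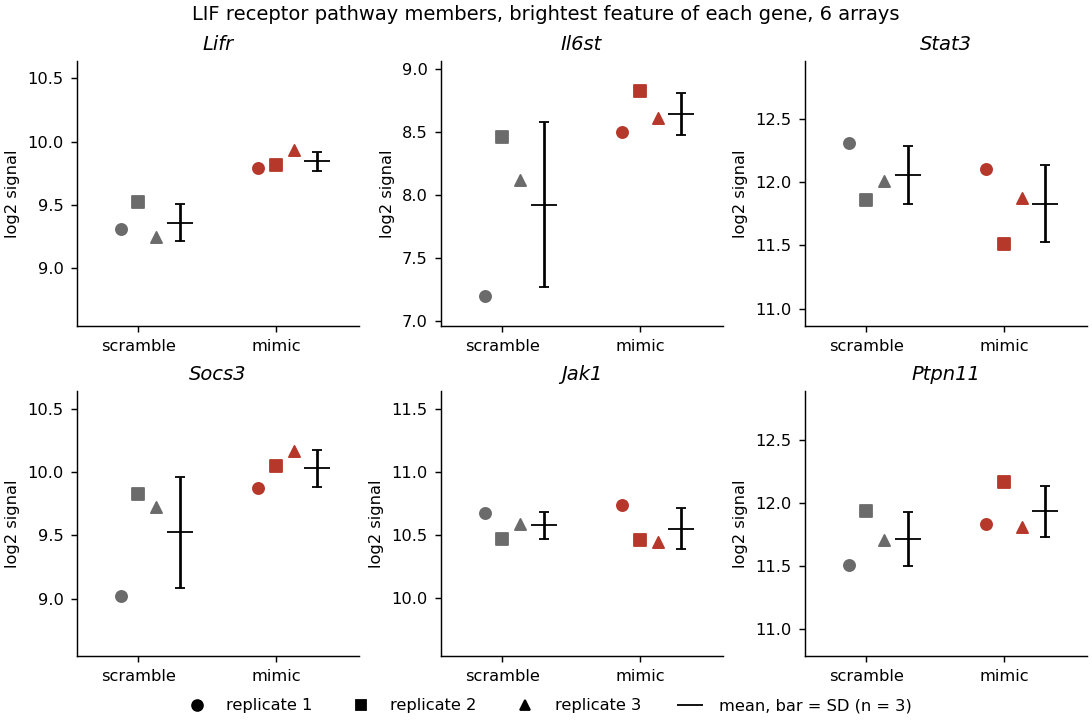
Log2 signal (y axis) of the brightest feature of each of the 6 genes on the scramble and mimic arrays (x axis), with a marker for each replicate and black bars for the mean and SD (n = 3). In Lifr, Il6st and Socs3 the 3 mimic arrays lie above the 3 scramble arrays, and scramble replicate 1 is the lowest array in Il6st, Socs3 and Ptpn11. Each panel spans the same number of log2 units.

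**Figure D2:**
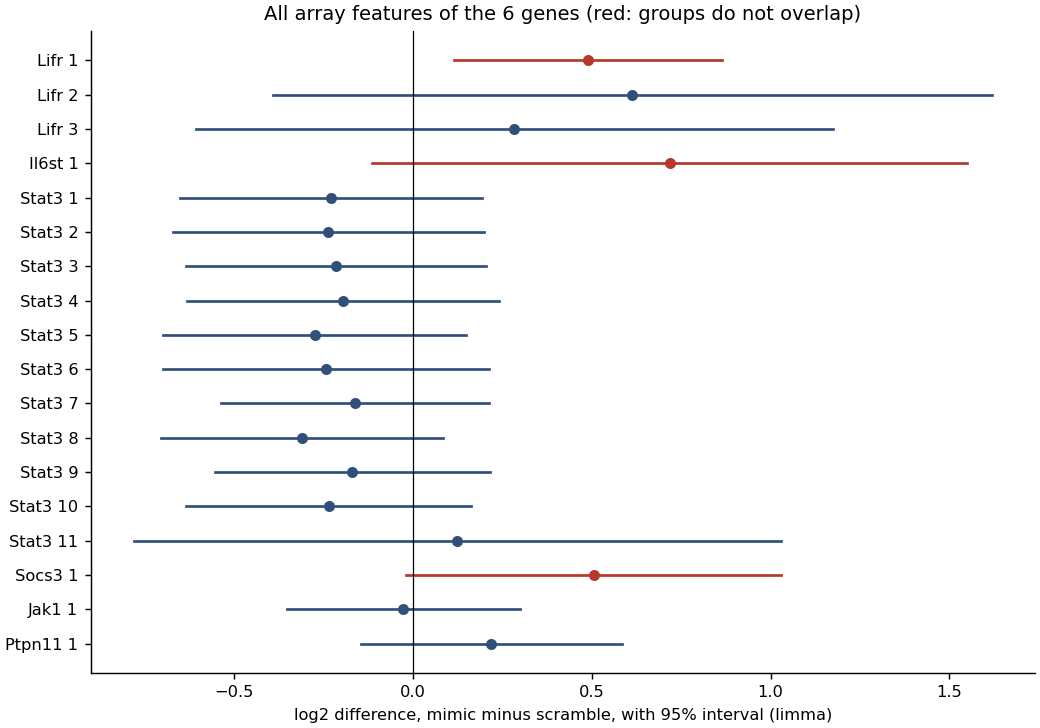
Log2 difference, mimic minus scramble (x axis), with its 95% interval from limma for each of the 18 features of the 6 genes (y axis, numbered from the brightest within a gene). The groups did not overlap in 3 features, drawn in red, and only the interval of the brightest Lifr feature lies wholly above 0.

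Counted by feature, 1 of 18 had an unadjusted p under 0.05, beside 3.11% of the 24769 features tested, and 3 of 18 had groups that did not overlap, beside 9.8%. None passed the adjusted threshold in limma, where the smallest adjusted p of a member feature was 0.979. Scramble replicate 1 was the lowest array in 3 of 6 members on the brightest feature, and in 6 of 18 features.

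Arrays with the same replicate number deviated together from their group means, as did some with different numbers. The differences are also given within each number. The log2 difference of Lifr was 0.49, 0.29 and 0.69 in replicates 1, 2 and 3, that of Il6st 1.30, 0.36 and 0.49, and that of Socs3 0.85, 0.22 and 0.44. Ptpn11 had 0.32, 0.23 and 0.10, and Stat3 had -0.20, -0.35 and -0.13. These 5 members had one sign in all 3 numbers, as did 33% of all genes, while Jak1 had 0.06, -0.0029 and -0.14. With the replicate number as a block, 5 of 6 members had an unadjusted p under 0.05 in limma, beside 7.24% of all genes, and 0 of 6 passed at an adjusted p of 0.05. Over all genes 1 of 17399 passed, with an adjusted p of 0.0138. The smallest adjusted p of a member was then 0.587, for Lifr, and the others except Jak1 had 0.615 to 0.675. No label ties a number to a shared culture day, and the values above are from the fit without the block.

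The members' patterns over the 6 arrays were compared by the root mean square distance between their deviations from their own means. Since they share the arrays, these distances are a description. Of the 15 pairs, Stat3 and Jak1 were the closest, at 0.17 log2 units, followed by Il6st and Socs3 at 0.19. The widest distance was that of Il6st and Stat3, at 0.74. Among all genes tested, the 3 most like Lifr were Abo, Adamts7 and Krt1, at distances of 0.052 to 0.058 where the median gene lay at 0.360. All 3 read between 6.81 and 7.54, near the dim end of the array. The 3 most like Socs3 were Zc3h7b, Cenpq and Ssx2ip, at 0.043 to 0.049 against a median of 0.411, and each had its lowest value on scramble replicate 1.

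The rest of the pathway was close to even. Of 69 further genes in 7 lists, 61 had a named feature and 56 passed the filter on dim signal. Of these 31 had higher and 25 lower mean signal, and the median difference was 0.03 on the log2 scale, beside 0.02 over all genes. In limma 0 of 56 passed an adjusted p of 0.05, and 2 of 56 had an unadjusted p under 0.05, beside 3.17% of all genes. The groups did not overlap in 6 of 56 (10.7%), beside 9.7% of all genes, 3 of them higher and 3 lower.

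Among 8 ligands of the family 4 were higher and 4 lower, and none was past the unadjusted threshold. Lif itself read 7.06, 7.52 and 8.01 with scramble and 7.15, 7.44 and 7.68 with the mimic, which overlap, and had a log2 difference of -0.11 (SE 0.30). Its signal lay near the dim end, and its difference turned to 0.13 without scramble replicate 3. Ctf2, a cardiotrophin gene, had -0.24 (SE 0.16). Its groups did not overlap, at 7.26 to 7.41 with scramble and 7.07 to 7.16 with the mimic, near the dim end. Clcf1, a cytokine that acts through the CNTF receptor, had -0.19 (SE 0.21), and Il27, a subunit of interleukin-27, 0.18 (SE 0.28). Clcf1 had -0.05 without mimic replicate 3, and Il27 had 0.04 without mimic replicate 1.

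All 3 of the other receptors tested were lower in the mean. Il27ra, the interleukin-27 receptor subunit that pairs with gp130, had -0.72 (SE 0.32), with groups that did not overlap. Scramble replicate 1 read 8.37 and the other 5 arrays at most 7.33, and without it the log2 difference was -0.33. Il6ra, the interleukin-6 receptor, had -0.02 (SE 0.21) and Cntfr, the receptor of ciliary neurotrophic factor, -0.01 (SE 0.44), and the signs of both turned on leaving out single arrays. Of the other Janus kinases, Jak2 had 0.23 (SE 0.31), Tyk2 -0.18 (SE 0.52) and Jak3 -0.06 (SE 0.24). The sign of Jak2 turned to -0.02 without scramble replicate 1, and without mimic replicate 1 Tyk2 had 0.36 and Jak3 0.18.

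Of 5 other STAT genes 4 were higher. Stat5b had a log2 difference of 0.41 (SE 0.28), with groups that did not overlap, but its second feature had 0.12. Stat2, a mediator of interferon signalling, had 0.60 (SE 0.43) and Stat4 had -0.32 (SE 0.25). Stat2 read 9.30 on mimic replicate 1 and 7.27 on scramble replicate 1, and its log2 difference was -0.11 without both arrays. Stat5b had 0.25 without scramble replicate 1, and Stat4 had -0.10 without mimic replicate 1.

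Of 13 other inhibitors 7 were higher and 6 lower, and the 2 pathway genes under an unadjusted p of 0.05 were both in this list. Cish, a SOCS family gene that STAT5 induces, read 10.15, 9.88 and 9.74 with scramble and 9.45, 9.42 and 9.35 with the mimic. All mimic arrays lay below all scramble arrays, opposite to Socs3. Its log2 difference was -0.52 (SE 0.17), with an unadjusted p of 0.0140 and an adjusted p of 0.972 in limma, and stayed between -0.61 and -0.40 on leaving out any single array. Pias1, an inhibitor of activated STAT proteins, had 0.74 (SE 0.30) on its brightest feature, with groups that did not overlap. The differences of its 3 features, however, lay between -0.01 and 0.74. Ptpn1, a phosphatase that acts on Janus kinases, had -0.40 (SE 0.28), and -0.19 without mimic replicate 1.

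In the branch downstream of SHP2, 9 of 14 genes had higher mean signal, and the median of the list was 0.11. Araf, a RAF kinase, had 0.23 (SE 0.13) on its brightest feature, and its groups did not overlap. The differences of its 3 features lay between 0.19 and 0.46. With their mean the log2 difference was 0.29 (SE 0.23), and the groups overlapped. Pik3ca, a catalytic subunit of PI3 kinase, had 0.56 (SE 0.35), and the adaptor gene Gab2 had 0.44 (SE 0.29). Without mimic replicate 1 Pik3ca had 0.23, and without scramble replicate 1 Gab2 had 0.18. Without both replicate 1 arrays they had 0.06 and 0.02. Araf had 0.13 without mimic replicate 2. Scramble replicate 1 was the lowest array in 9 of these 14 genes, and its part in the count was not tested.

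Genes reported to respond to STAT3 in mouse embryonic stem cells or other tissues showed no common direction, with 6 of 10 higher and a median of 0.08. Tfcp2l1, a pluripotency factor downstream of LIF, had -0.26 (SE 0.15), Pim1, a kinase gene, -0.34 (SE 0.30), and Mcl1, an inhibitor of apoptosis, 0.25 (SE 0.18). Leaving out 1 array moved each by over 1.5 times. Without scramble replicate 1 Tfcp2l1 had -0.13 and Mcl1 0.07, and without mimic replicate 1 Pim1 had -0.08. The second feature of Tfcp2l1 had -0.04. The groups did not overlap in 0 of these 10 genes, and limma called none, with 0 at an unadjusted p under 0.05.

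**Figure D3:**
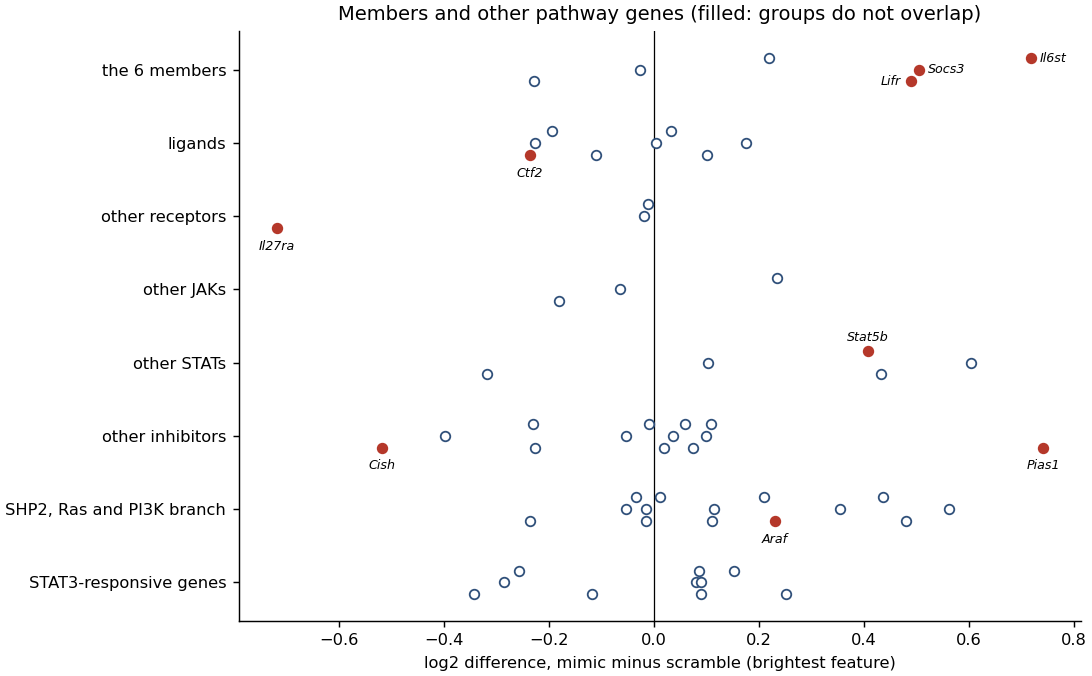
Log2 difference, mimic minus scramble (x axis), of the brightest feature of each of the 6 members and of the 56 other pathway genes tested, by list (y axis). Filled points are genes whose groups did not overlap. They are 3 members above 0, 3 other genes above 0 and 3 below it.

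The mean of each cell type marker list overlapped between the groups, except that of the sperm markers, at 7.24 to 7.35 with scramble and 7.10 to 7.22 with the mimic, near the dim end. The mean log2 signal of the primitive endoderm markers was 9.96 to 10.18 with scramble and 10.09 to 10.38 with the mimic, with 3 of 4 markers higher, none of which passed the adjusted threshold. The trophectoderm mean was 13.13 to 13.40 with scramble and 13.03 to 13.38 with the mimic, with 2 of 7 markers higher. That of the inner cell mass markers was 9.32 to 9.70 and 9.34 to 9.43, with 2 of 5 higher. Single markers did separate the groups. The groups did not overlap in 9.7% of all genes tested, and the share among the markers was not compared with it. Nanog, a pluripotency factor, read 10.77, 10.17 and 10.39 with scramble and 10.11, 10.13 and 10.07 with the mimic, and Krt8, a keratin of the trophectoderm, was also lower on every mimic array. Sox2, another pluripotency factor, was higher on every mimic array, but the nearest arrays of the groups read 8.229 and 8.226. Among the dim markers of other cells, Has2 and Fshr were higher and Foxj1 and Odf1 lower on every mimic array. Of these, Fshr did not pass the filter on dim signal and was not among the genes tested. All these markers were singled out after their values were seen. The adjusted p of Nanog, Krt8 and Sox2 in limma was 0.972 each. The cumulus mean was 7.03 to 7.09 with scramble and 7.02 to 7.48 with the mimic. The oviduct mean was 7.12 to 7.37 with scramble and at most 7.26 with the mimic, and the blood mean was at least 6.83 with scramble and 7.02 to 7.12 with the mimic. The part of cell type in the differences of the members was not tested.

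**Figure D4:**
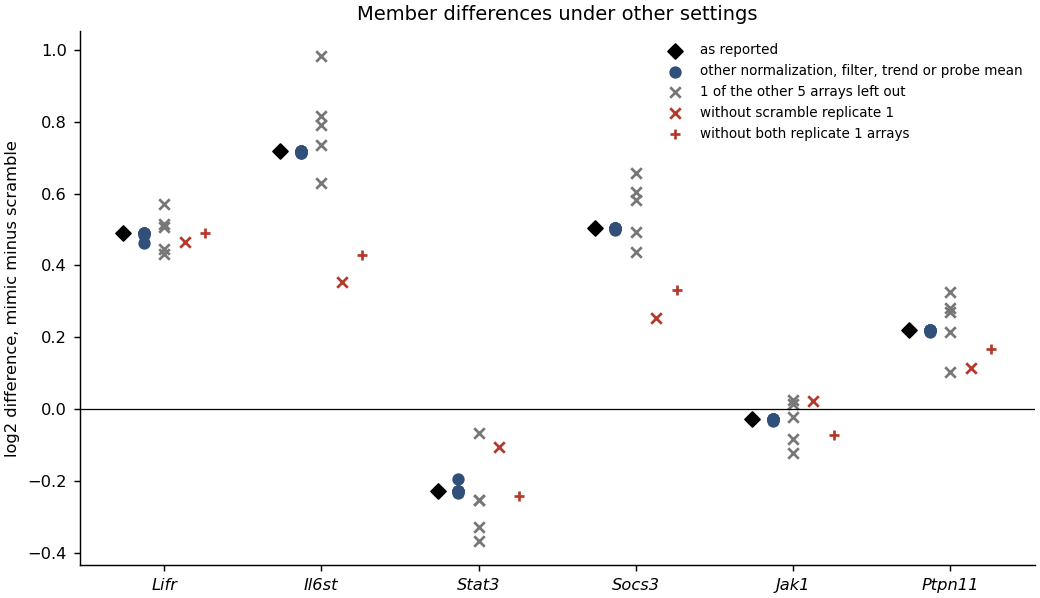
Log2 difference, mimic minus scramble (y axis), of each member (x axis) as reported and under other settings, each point being 1 setting. Lifr stayed between 0.43 and 0.57 with each array left out in turn, while Il6st and Socs3 were lowest without scramble replicate 1, at 0.35 and 0.25.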

How the data were processed

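The data are log2 signal values of 6 single-colour arrays, 3 of blastocysts cultured with a scrambled oligonucleotide and 3 with a miR-30d mimic. Groups and numbers were read from the sample titles, where each sample is a biological replicate. Separate matings are not stated, and p-values rest on the spread between these samples only. Per the labels' protocols, RNA was amplified with T7 RNA polymerase and labelled with Cy3. The deposited table holds log2 values for 45220 features, a scale inferred from their range. For scanning, background correction and normalization by the authors, no source used here gives a method. The array medians lay between 7.367 and 7.376, so a change shared by most genes cannot be seen. No detection flags were used, so dim features have no known limit and their differences can be understated.

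Features were named from the platform annotation (33026 of 45220), with symbols updated by Entrez identifier through RefSeq (98.2%). Named features in the lowest 25% by mean signal were dropped, leaving 24769. The brightest feature stood for each of 17399 genes. The groups were tested two-sided in R 4.3.3 by limma 3.58.1, using lmFit, then eBayes with a variance trend. The p-values were adjusted by Benjamini-Hochberg over all genes or all features, and the fit was tested on simulated data. Figures were drawn with matplotlib 3.10.9. Same-numbered arrays correlated in their deviations from the group means at 0.328, 0.349 and 0.204, all over the 0.1 set as a rule for pairing. Arrays with different numbers passed it too, scramble replicate 2 with mimic replicate 3 at 0.185 and scramble replicate 3 with mimic replicate 2 at 0.124. The rule therefore does not settle that the numbers pair the samples.

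The members and lists were chosen with earlier results of these data known. The genes named are the 6 members, the 3 with the smallest unadjusted p in each of the 7 lists, Lif, and the 3 genes most like Lifr and Socs3. Features of one probe could not be identified, so each was kept separate. The listed genes without a named feature were not analysed here. Alternatives were other normalizations, filters, no trend, probe means, the replicate block and arrays left out.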

Additional observations from a re-analysis of the deposited data

How the results depend on the processing

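None of the 6 members or 22 named pathway genes passed the adjusted threshold in limma under the alternatives that tested it, which were 14 except that the stricter filter dropped Ctf2, Clcf1, Cntfr, Il27ra, Jak3 and Stat4, and the smallest adjusted p of a member was 0.587, with the replicate block. Quantile normalization, median centring, both other filters and the fit without a trend turned no member or named pathway gene they tested. With median centring 30 of 56 pathway genes were higher, in place of 31. Without a filter 36 of 61 were higher, with the stricter filter 29 of 48, and with each array left out in turn 27 to 36 of 56. The count of members under an unadjusted p of 0.05 was 5 with the replicate block, 0 with probe means, 3 without both replicate 1 arrays and 0 to 3 with each array left out, beside 1260, 527, 1000 and 362 to 919 of 17399 genes. For pathway genes it was 5 with the replicate block, 1 with probe means and 0 to 3 with each array left out, and for member features 9 with the replicate block, 3 without both replicate 1 arrays and 0 to 3 with each array left out, beside 1755, 1470 and 552 to 1320 of 24769 features. Most of the 9 member features were bright Stat3 features, which read the same RNA samples and are no replication. Groups did not overlap in 3 pathway genes with probe means, and in 19 pathway genes and 8 member features without both replicate 1 arrays. With each array left out these counts were 8 to 14 and 3 to 7. Over all 17399 genes 1628 did not overlap with probe means, 6214 without both replicate 1 arrays and 2737 to 4117 with each array left out, and of 24769 features 8873 did not overlap without both replicate 1 arrays and 3880 to 5931 with each array left out. These counts can grow by construction with fewer arrays. Signs turned for several genes and for the dim Stat3 feature, and the cause was not tested. With each array left out in turn, the log2 difference of Jak1 lay between -0.12 and 0.024, Jak2 -0.018 to 0.37, Jak3 -0.23 to 0.18, Tyk2 -0.55 to 0.36, Lif -0.35 to 0.13, Il6ra -0.21 to 0.19, Cntfr -0.54 to 0.31 and the dim Stat3 feature -0.30 to 0.41. Without both replicate 1 arrays, Il27 had -0.043, Jak3 0.066, Stat2 -0.11 and the dim Stat3 feature -0.20.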
